A study of Homo sapiens with 8 samples.

Results

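Notch signalling was examined here through 10 genes of the pathway: the receptors NOTCH1, NOTCH2 and NOTCH3, the ligands JAG1, JAG2 and DLL1, the DNA-binding factor RBPJ, and the target genes HES1, HEY1 and NRARP. They were picked by symbol. All 27 probe sets annotated to one of these symbols alone were used, of 54613 probe sets tested, and the 10 genes are part of the 19775 genes measured. The main probe set of a gene is the one with the highest mean over all arrays. The cells were A549, an established human lung adenocarcinoma line, and 8 arrays of the Affymetrix U133 plus 2.0 type covered 4 groups with 2 arrays apiece. These were treated spheroid (3D) cultures, control spheroids, treated monolayer (2D) cultures and control monolayers. Spheroids are cell aggregates formed in hanging droplets. Treatment was TNF at 10 ng/ml together with TGFβ at 2 ng/ml, given in 2 rounds of 48 h (4 days in all), to induce the epithelial-mesenchymal transition (EMT), and the controls received neither cytokine. All groups come from 1 cell line with no other cell type named. The study's methods call the array pairs technical duplicates, while the deposited design calls them biological replicates, so p-values measure only the spread between arrays, which may be technical. With 2 arrays per group, their number limits the precision of every value.

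Notch receptors are single-pass membrane proteins that bind ligands of the Jagged and Delta families on a neighbouring cell. Binding allows a protease of the ADAM family and then γ-secretase to cut the receptor, and the freed intracellular domain joins RBPJ on DNA and turns it from a repressor into an activator. The classical targets are HES and HEY genes, which encode repressors of the basic helix-loop-helix family, and NRARP, which encodes an ankyrin repeat protein that dampens the pathway. In epithelial cells JAG1 and HEY1 are also known as genes that respond to TGFβ, and Notch signalling has been tied to EMT in several carcinomas.

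HES1 is shown as sequence because it was the member whose response to the cytokines differed between spheroids and monolayers by the test below, and because its promoter is a textbook site of RBPJ binding. The stretch covers the 250 bases before its annotated start (RefSeq, build GRCh38.p14, chr3:194135898-194136147, plus strand), written 5′ to 3′ with the core of the RBPJ motif, TGGGAA, in capitals.
HES1: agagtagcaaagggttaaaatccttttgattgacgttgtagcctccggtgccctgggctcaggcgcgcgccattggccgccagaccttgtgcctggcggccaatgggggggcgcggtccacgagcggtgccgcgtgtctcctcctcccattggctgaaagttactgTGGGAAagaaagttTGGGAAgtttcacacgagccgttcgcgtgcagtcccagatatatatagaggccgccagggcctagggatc
The core occurs 2 times, at 84 to 79 and at 70 to 65 bases before the start, both on the strand of the gene and without overlap. Of the 10 genes, 8 were matched in the RefSeq promoter table, and HEY1 and DLL1 were not. Only the first listed start of each gene was read, while the shares below count every listed promoter. Apart from HES1, the other 7 of the 8 matched genes held no core on either strand in the same window. At least 1 core was present in 20.85% of 35116 promoters of this length and at least 2 in 2.9%. The E-box CACGTG, which HES and HEY proteins can bind, was found in 0 of the 8 promoters and in 6.345% of all promoters. These matches describe letters only, and binding was not measured on these arrays. Only the exact letters TGGGAA were searched for RBPJ, so a site with other letters stays in lower case. Whether either match in HES1 is a known RBPJ site was not looked up.

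The values are the authors' GCRMA expression values on a log2 scale, on which array medians lay between 2.43 and 2.50 and the lowest value on every array was 2.23. A difference of 1 on this scale is a change by a factor of 2. Of the epithelial markers, all 8 (KRT8, KRT18, KRT19, KRT7, EPCAM, CDH1, CLDN4 and ELF3) lay above the array median on all 8 arrays, with group means between 3.82 (CLDN4) and 15.09 (KRT18). Markers of other cell types were mostly dim. Of 8 endothelial markers 6 were below the array median on every array, CDH5 and KDR at the lowest value throughout, and group means of the list reached at most 4.51. Of 6 measured leukocyte markers 4 (PTPRC, CD3E, CD2 and MS4A1) were below it on every array. CD14 and ITGAM were not, and their group means reached 9.24 and 7.84, both in treated monolayers. Of 2 measured erythroid markers, ALAS2 was at the lowest value throughout and HBB reached a group mean of 3.44. In treated spheroids 4 epithelial markers were lower than in control spheroids (limma, adjusted p under 0.05), among them EPCAM (6.12 against 8.32, adjusted p = 0.0402) and CDH1 (11.85 against 12.76, adjusted p = 0.0155), while CLDN4 was higher (5.61 against 3.84, adjusted p = 0.036). CD14 was lower as well (5.66 against 8.52, adjusted p = 0.0477). The part of these shifts in the results below was not tested. In bulk RNA of this kind, fewer cells that express a gene and less RNA per cell cannot be told apart.

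**Figure D1:**
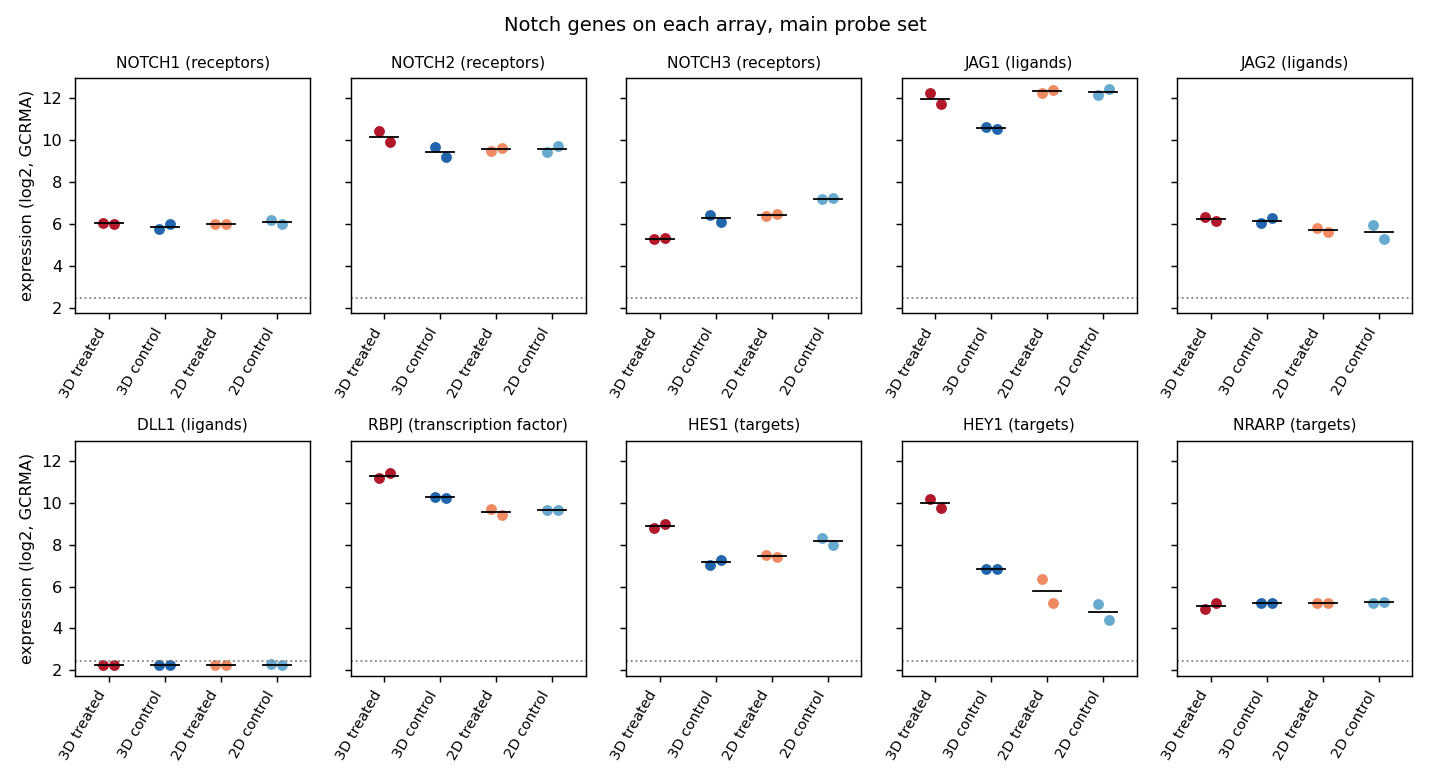
Expression (log2, GCRMA) of the 10 Notch genes on each array, main probe set. Each point is 1 array, bars are group means of 2 arrays, and the dotted line is the mean of the array medians. HEY1, HES1 and RBPJ lay highest in treated spheroids, NOTCH3 lowest, and JAG1 lowest in control spheroids, while DLL1 stayed under the dotted line on all 8 arrays.

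In treated spheroids, HEY1, HES1, JAG1 and RBPJ were higher and NOTCH3 was lower than in control spheroids. HEY1 rose 8.88-fold, HES1 3.33-fold, JAG1 2.66-fold and RBPJ 2.04-fold, whereas NOTCH3 fell 1.95-fold. NOTCH2 and JAG2 did not pass the test, and NOTCH1, NRARP and DLL1 sat at or near a repeated value on most arrays. By limma with Benjamini-Hochberg adjustment over all 54613 probe sets and a threshold of 0.05, 4 of the 10 genes were thus called higher and 1 lower. Over all 19775 genes, 5.53% were called higher and 10.8% lower. The median log2 fold-change was 0.44 over the 10 genes, with NOTCH1, NRARP and DLL1 included, and 0 over all genes. Genes at a repeated value enter both medians, here and below, and 50.96% of all probe sets shared a value on at least 5 arrays. At an unadjusted p under 0.05 the counts were 5 higher and 1 lower. The share of all genes at that unadjusted cut-off was not computed, here or below, so such counts have no background beside them. Fitted on the 4 spheroid arrays alone, 0 of the 5 calls passed, and HES1 then had an adjusted p of 0.0741.

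Among the receptors, NOTCH3 was the one called. It encodes a receptor best known from vascular smooth muscle that is also expressed in many carcinomas. Its levels were 5.29 and 5.30 in treated spheroids, 6.44 and 6.08 in control spheroids, 6.37 and 6.45 in treated monolayers, and 7.16 and 7.26 in control monolayers. Both treated spheroid arrays were below all others, and both control monolayer arrays were above all others. The groups in between overlapped. The log2 fold-change in spheroids was −0.96 (standard error 0.13, limma adjusted p = 0.0209). In monolayers it was −0.80 (standard error 0.13) with an adjusted p of 0.184, so the gene did not pass there even though the groups did not overlap, and the difference between the spheroid and monolayer responses was −0.16 (95% interval −0.65 to 0.33, adjusted p = 0.788). The call in spheroids was lost when any 1 of 6 arrays was left out (both control monolayer, both treated monolayer and both treated spheroid arrays), with adjusted p up to 0.0717 and a log2 fold-change between −1.14 and −0.78. The other NOTCH3 probe set stayed between 2.23 and 2.35 on all arrays.

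NOTCH2, a receptor closely related in sequence to NOTCH1, was bright in every group and was not called. Its main probe set read 10.43 and 9.92 in treated spheroids, 9.69 and 9.20 in control spheroids, 9.50 and 9.62 in treated monolayers, and 9.45 and 9.74 in control monolayers. Treated spheroids lay above the other groups on both arrays. The difference in spheroids was 0.73 (95% interval 0.01 to 1.44), and its limma adjusted p was 0.223. The probe sets 202443_x_at and 210756_s_at gave 0.60 and 0.66 on the log2 scale in the same comparison (adjusted p = 0.195 and 0.346 by limma). Probe sets whose names carry x_at or s_at can also match related transcripts, so these signals may not come from NOTCH2 alone. The main sets of NOTCH3, JAG1, DLL1, RBPJ, HES1 and HEY1 carry such names too.

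NOTCH1, the receptor most often altered in T-cell leukaemia, was listed at 6.01 on 5 of the 8 arrays and at 6.06, 5.73 and 6.20 on the others. Such a repeated value marks a probe set for which the summarized signal carries no difference between those arrays. A value shared by at least 5 arrays occurred for 50.96% of all probe sets. No difference is therefore given for NOTCH1, nor for its other probe set, which read 2.31 on 7 arrays and 2.50 on 1 control spheroid array.

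JAG1, the Jagged ligand most often studied in carcinomas, was bright in every group and lowest in control spheroids. Its main probe set read 12.25 and 11.71 in treated spheroids, 10.61 and 10.53 in control spheroids, 12.27 and 12.41 in treated monolayers, and 12.15 and 12.44 in control monolayers. Control spheroids were below the other 6 arrays by at least 1 on the log2 scale, and the monolayer groups overlapped. The log2 fold-change between treated and control spheroids was 1.41 (standard error 0.22, limma adjusted p = 0.0283). In monolayers it was 0.04 (95% interval −0.54 to 0.62, adjusted p = 1). The difference between both responses was 1.37 (standard error 0.31) and did not pass (limma adjusted p = 0.127, and 0.0392 without the second treated spheroid array). The spheroid call was lost without any 1 of 6 arrays, which are all but the treated spheroid ones, with adjusted p up to 0.123.

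Of the 6 JAG1 probe sets, 3 were called higher in treated than in control spheroids. The set 209099_x_at gave 1.36 and 231183_s_at gave 2.06 (log2 fold-change, limma adjusted p = 0.0267 and 0.0376). A further one, 209098_s_at, gave 1.49 with an adjusted p of 0.0672. The last pair was dim: 209097_s_at lay between 3.21 and 3.57 with a difference of 0.10 (limma adjusted p = 0.832), and 229924_s_at was at the lowest value on all arrays.

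JAG2, the second Jagged ligand, was not called between treated and control cultures on either of its probe sets. The main set read 6.35 and 6.12 in treated spheroids, 6.03 and 6.27 in control spheroids, 5.82 and 5.62 in treated monolayers, and 5.94 and 5.29 in control monolayers. The spheroid groups overlapped, and the log2 fold-change was 0.08 (95% interval −0.61 to 0.77). The dimmer set 209784_s_at read 5.98 and 5.79 in treated spheroids, 5.94 and 6.05 in control spheroids, 4.89 and 4.84 in treated monolayers, and 4.70 and 4.60 in control monolayers. On it, spheroids lay above monolayers on every array. Its monolayer groups did not overlap, with a log2 fold-change of 0.21 that did not pass (limma adjusted p = 0.646). The difference between its spheroid and monolayer responses was −0.32 (95% interval −0.63 to −0.01, limma adjusted p = 0.296). DLL1, a Delta ligand, was between 2.23 and 2.28 on its main probe set and below the array median on all 8 arrays, so no change can be read for it.

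RBPJ, the factor through which all receptors act on DNA, was higher in treated spheroids on both of its bright probe sets. The main set read 11.16 and 11.41 in treated spheroids, 10.27 and 10.25 in control spheroids, 9.72 and 9.41 in treated monolayers, and 9.65 and 9.64 in control monolayers. The spheroid groups stood apart from each other and from the monolayers, and the monolayer groups overlapped. The log2 fold-change was 1.03 in spheroids (standard error 0.13, limma adjusted p = 0.0194), against −0.08 in monolayers (95% interval −0.44 to 0.28, adjusted p = 1). The difference between the responses was 1.11 (standard error 0.19) and did not pass (limma adjusted p = 0.0777).

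The second bright RBPJ set, 207785_s_at, gave a log2 fold-change of 0.73 in spheroids (limma adjusted p = 0.0249). The dim set 229540_at read 3.08 and 4.04 in treated spheroids, against 2.23 and 2.23 in control spheroids. The treated mean of 3.56 is at least 2.18-fold higher when the control arrays are set at their medians. The treated arrays lay apart, and the difference did not pass (limma adjusted p = 0.0885). The call of the main set was lost without either control monolayer array, either control spheroid array or the second treated spheroid array, with adjusted p up to 0.0893. Both bright sets are of the x_at or s_at kind, and signal from related transcripts was not tested.

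HEY1, a repressor of the HES-related family, had the largest log2 fold-change of the 10 genes in spheroids. Its main probe set read 10.20 and 9.77 in treated spheroids, 6.83 and 6.84 in control spheroids, 6.38 and 5.22 in treated monolayers, and 5.14 and 4.42 in control monolayers. The groups did not overlap in any pairing, and the treated monolayer arrays were the farthest apart. The log2 fold-change in spheroids was 3.15 (standard error 0.49, limma adjusted p = 0.0287). In monolayers it was 1.02 (standard error 0.49, 95% interval −0.29 to 2.32, adjusted p = 0.836). The difference between the responses was 2.13 (95% interval 0.29 to 3.98) with an adjusted p of 0.247. The other set, 218839_at, read 9.24 and 7.95 in treated spheroids, against 4.64 and 4.67 in control spheroids. It gave 3.94 in the same comparison, a 15.3-fold rise (standard error 0.49, limma adjusted p = 0.0176). On the main set the call was lost without any 1 of 6 arrays, all but the treated monolayer ones, with adjusted p up to 0.119 and a log2 fold-change between 2.93 and 3.37.

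HES1, an immediate target of Notch that also answers to other signals, had log2 fold-changes of opposite sign in spheroids and monolayers, of which the monolayer one did not pass. Its main probe set read 8.82 and 8.99 in treated spheroids, 7.05 and 7.28 in control spheroids, 7.52 and 7.43 in treated monolayers, and 8.33 and 8.00 in control monolayers. The order of the group means was treated spheroids, control monolayers, treated monolayers and control spheroids (8.90, 8.16, 7.47 and 7.16), and no neighbouring groups overlapped on these arrays. The log2 fold-change in spheroids was 1.74 (standard error 0.15, limma adjusted p = 0.00844). Leaving out any 1 of the 8 arrays kept the adjusted p at or under 0.035. In monolayers the log2 fold-change was −0.69 (standard error 0.15), which did not pass (limma adjusted p = 0.296). The gene is among those that the study itself names for their expression on these arrays.

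The difference between the spheroid and monolayer responses of HES1 was 2.42 on the log2 scale (standard error 0.21, 95% interval 1.85 to 3.00, limma adjusted p = 0.0233), a factor of 5.37. HES1 was the 1 member called in this test, as higher. Over all genes 1.32% were called higher and 1.94% lower in it, so that 40.5% of the called genes were higher (29.4% when each array's median was subtracted). At an unadjusted p under 0.05, 4 members were higher and 0 lower. The shares of all genes just given are at the adjusted threshold and are no background for these unadjusted counts. The median difference was 0.51 over the 10 genes and 0 over all genes. A second HES1 probe set, 203395_s_at, gave 0.84 in spheroids, −0.47 in monolayers and 1.31 for their difference (limma adjusted p = 0.0168, 0.293 and 0.0366). The third, 203393_at, was at the lowest value on every array. The call of the difference was lost without either treated monolayer array, with adjusted p up to 0.0591.

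NRARP was listed at 5.24 on 6 of the 8 arrays. The other readings were 4.92 on the first treated spheroid array and 5.27 on the second control monolayer array. Its single probe set carried no usable difference, so this target cannot be set beside HES1 and HEY1.

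**Figure D2:**
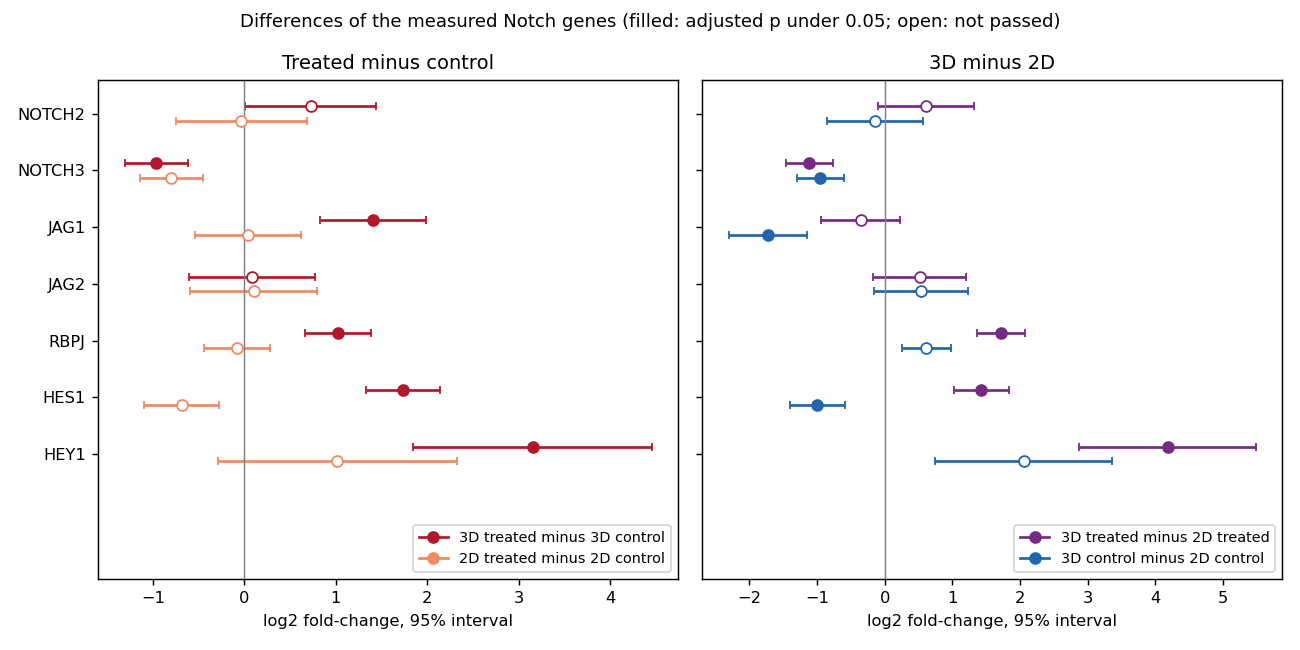
Log2 fold-changes (x axis) of the 7 Notch genes with a measured difference, main probe set, with 95% intervals from limma. Left, treated minus control in spheroids and in monolayers, and right, spheroids minus monolayers with and without cytokines, with filled points for an adjusted p under 0.05. On the left 5 of the spheroid points are filled and 0 of the monolayer points, and HES1 lies at 1.74 in spheroids and at −0.69 in monolayers.

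In monolayers, 0 of the 10 genes were called in either direction by limma, and ordinary t statistics of the same fit also gave 0. At an unadjusted p under 0.05, 0 were higher and 2 were lower, which are NOTCH3 and HES1. At the adjusted threshold the share of all genes called was small as well, at 0.121% higher and 0.0759% lower. The median log2 fold-change was −0.02 over the 10 genes. A p that misses the threshold does not show that the monolayer groups were alike, and for HEY1 the interval reached 2.32.

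The same arrays allow spheroids to be set against monolayers, and these comparisons share their groups with those above. Without cytokines, JAG1, HES1 and NOTCH3 were lower in control spheroids than in control monolayers, and 0 members were higher. The log2 fold-change was −1.73 for JAG1 (standard error 0.22, a 3.31-fold difference), −0.998 for HES1 (standard error 0.15) and −0.95 for NOTCH3 (standard error 0.13), with limma adjusted p = 0.0262, 0.0373 and 0.0302. Over all genes 5.77% were called higher and 4.90% lower. HEY1 and RBPJ had positive differences of 2.05 and 0.62 that did not pass (limma adjusted p = 0.0954 and 0.0784). With an unadjusted p under 0.05, the counts were 2 higher and 3 lower, and the median over the 10 genes was −0.08.

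These 3 calls were sensitive to leaving out an array, also one outside the comparison. Leaving out such an array keeps the log2 fold-change as it is and alters the estimate of the spread. Without 1 array the log2 fold-change ran from −1.17 to −0.83 for HES1, from −1.87 to −1.58 for JAG1 and from −1.13 to −0.77 for NOTCH3. HES1 lost its call without any 1 of the 8 arrays (adjusted p up to 0.120), JAG1 without any 1 of the 6 arrays other than treated spheroids (up to 0.105) and NOTCH3 without any 1 of the 6 other than control spheroids (up to 0.116). Fitted on the 4 control arrays alone, 0 of the 3 passed and RBPJ passed as higher. Other probe sets were called as well. JAG2 set 209784_s_at was higher in control spheroids by 1.35 (standard error 0.08, limma adjusted p = 0.00783, 2.54-fold), whereas the main JAG2 set had a difference of 0.53 that did not pass (adjusted p = 0.414). RBPJ set 207785_s_at was higher by 0.78 (limma adjusted p = 0.0305). For JAG1, 3 of the 6 sets were lower in control spheroids.

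With cytokines in both culture forms, HEY1, RBPJ and HES1 were higher and NOTCH3 was lower in treated spheroids than in treated monolayers. HEY1 differed by 4.19 (standard error 0.49, limma adjusted p = 0.0106), which is 18.2-fold. RBPJ differed by 1.72 and HES1 by 1.43 (limma adjusted p = 0.00488 and 0.00874), and NOTCH3 by −1.11 (adjusted p = 0.0106). Of all genes, 9.06% were called higher and 14.5% lower. The median over the 10 genes was 0.27, and the counts at an unadjusted p under 0.05 were again 3 higher and 1 lower. JAG1, lower in control spheroids than in control monolayers, here had a difference of −0.36 (95% interval −0.94 to 0.22, limma adjusted p = 0.504). The JAG2 set 209784_s_at was again higher in spheroids, by 1.02 (limma adjusted p = 0.00505). Only the NOTCH3 call was lost on leaving out 1 array, the second treated monolayer array (adjusted p = 0.0579). Fitted on the 4 treated arrays alone, NOTCH3 passed and the other 3 did not.

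**Figure D3:**
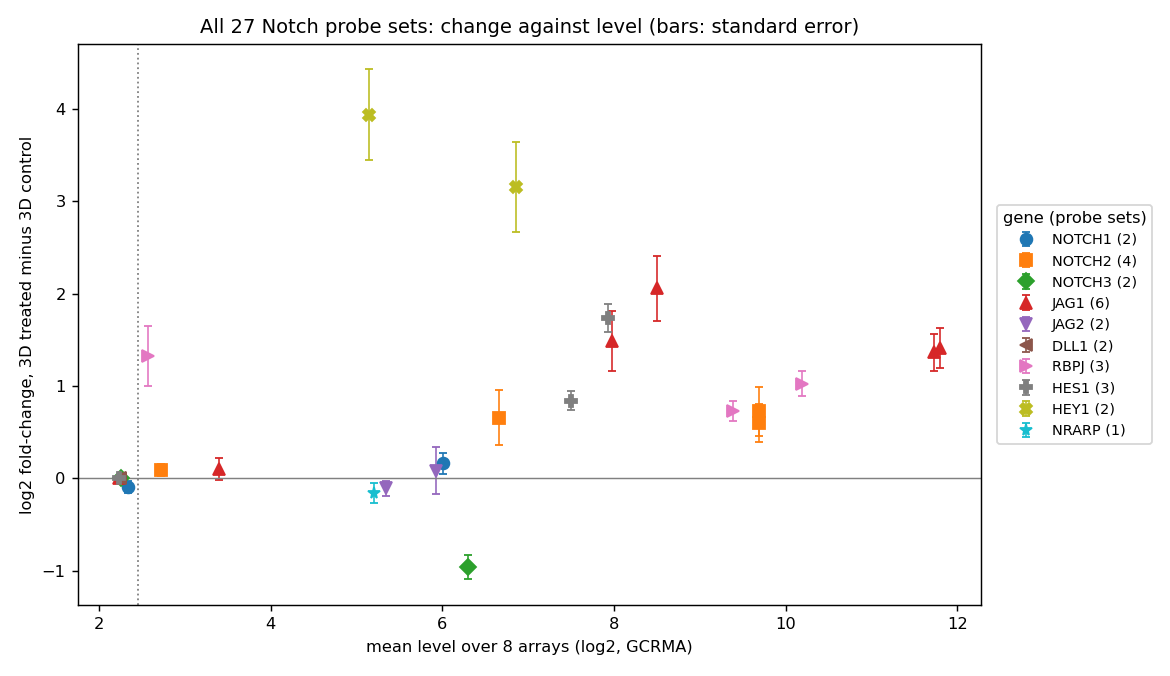
Log2 fold-change between treated and control spheroids (y axis, bars are standard errors) of all 27 Notch probe sets against their mean level over 8 arrays (x axis, log2, GCRMA), with 1 symbol per gene. The dotted line marks the mean of the array medians. HEY1 gave 3.15 and 3.94 on its 2 sets, and the 4 brighter JAG1 sets lay between 1.36 and 2.06. Sets near the lowest value showed no change except RBPJ 229540_at, whose rise did not pass.

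The genes around these members were read from 7 lists of pathway genes, of which 58 of 63 were measured on a probe set of their own. Among these, DLL4, DLK1, MIB2 and HES5 had the same value on 7 arrays, MFNG on 6, and NEURL1 and DTX1 on 5. They stay in the counts below, though a repeated value carries no difference between those arrays. Between treated and control spheroids 8 of the 58 were called higher and 7 lower by limma, against 5.53% and 10.8% of all genes, and the median log2 fold-change was −0.12. The same shares of all genes belong beside the counts per list given below for this comparison. No list was tested against them. In monolayers 0 were called by limma (4 higher and 4 lower at an unadjusted p under 0.05). Up to 4 called genes per list are named below, with 2 further corepressors that were named after their values were seen. Fitted on the 4 spheroid arrays alone, POFUT1 was the 1 gene of these lists that kept its spheroid call, and the other 14 did not pass.

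Among the other receptors and ligands, 1 of 6 was called. DNER, a membrane protein of neurons described as a Notch ligand in the mouse, read 7.83 and 7.38 in treated spheroids, 4.08 and 5.12 in control spheroids, 6.64 and 7.12 in treated monolayers, and 6.12 and 7.25 in control monolayers. As for JAG1, control spheroids were the low group. Its log2 fold-change in spheroids was 3.01 (standard error 0.57, limma adjusted p = 0.0461), a call lost without any 1 of the 8 arrays (up to 0.152).

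The glycosyltransferases that modify Notch receptors in the secretory pathway were lower in treated spheroids where they were called, which was 3 of 5. POFUT1, which adds O-fucose to the receptor, read 7.42 and 7.39 in treated spheroids, 7.96 and 7.92 in control spheroids, 8.21 and 8.26 in treated monolayers, and 7.98 and 7.95 in control monolayers. Treated spheroids were below and treated monolayers above both control groups. The log2 fold-change was −0.53 in spheroids (standard error 0.03, limma adjusted p = 0.00289), and the difference from the monolayer response was −0.80 (adjusted p = 0.00604). POFUT1 was the only gene of the 58 called in that difference (8 higher and 10 lower at an unadjusted p under 0.05). POGLUT1, which adds O-glucose, fell by 1.07 on the log2 scale in spheroids (limma adjusted p = 0.00987). LFNG, the Fringe enzyme that extends O-fucose and shifts the choice of ligand, fell by 1.64 there (limma adjusted p = 0.0235). LFNG was dim, at 3.15 and 2.88 in treated and 4.60 and 4.72 in control spheroids. The treated spheroid arrays had medians of 2.48 and 2.50. POFUT1 and POGLUT1 kept their calls without each array in turn, but POGLUT1 did not pass on the 4 spheroid arrays alone (adjusted p = 0.0956) or on its probe set with the largest change. LFNG lost its call without either treated monolayer array, either control spheroid array or the second treated spheroid array (up to 0.106).

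Of the 8 measured genes of receptor cleavage, 2 were higher and 1 was lower. FURIN, the convertase that cuts the receptor on its way to the surface, rose by 0.98 (standard error 0.10, limma adjusted p = 0.0108). ADAM17, a sheddase, rose by 0.71 (adjusted p = 0.048, lost without any array but the second treated spheroid one, up to 0.182). PSEN2, a catalytic subunit of γ-secretase, fell by 0.95 (standard error 0.08, limma adjusted p = 0.0088). FURIN and PSEN2 kept their calls without each array in turn and lost them on the 4 spheroid arrays alone (adjusted p = 0.121 and 0.098). PSEN2 was also lower in control spheroids than in control monolayers, with a difference of −0.95 (limma adjusted p = 0.0148, and 0.0552 without the second control monolayer array).

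For trafficking and turnover, 2 of 12 genes were called, both higher, against 5.53% of all genes called higher and 10.8% lower. They were DTX2 and DTX4, members of the Deltex family of ubiquitin ligases, which rose by 1.11 and 0.83 (adjusted p = 0.0146 and 0.0336 by limma). DTX2 lost its call without the first control spheroid or the second treated spheroid array (up to 0.0588), and DTX4 without any array but the second treated spheroid one (up to 0.114). ITCH, a ubiquitin ligase that targets Notch receptors, stood out between culture forms: it read 8.43 and 9.18 in treated spheroids, against 6.56 and 6.69 in treated monolayers. That difference was 2.18 (standard error 0.30, limma adjusted p = 0.0151, up to 0.0726 without either treated monolayer array). Without cytokines ITCH read 7.96 and 8.33 in spheroids, against 6.65 and 6.47 in monolayers. This difference of 1.59 did not pass (limma adjusted p = 0.0568). DTX3L was lower in treated spheroids than in treated monolayers, with a difference of −1.09 (limma adjusted p = 0.0474). That call was lost without any 1 array. Treated monolayers were the high group, with a mean of 10.20, against 9.24 in control monolayers, 9.34 in control spheroids and 9.11 in treated spheroids. Their rise over control monolayers did not pass (limma adjusted p = 0.342).

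Calls among the coactivators that act with RBPJ were near the share of all genes. Between treated and control spheroids, 5.53% of all genes were called higher and 10.8% lower. Of 8 coactivators 0 were higher and 1 was lower in treated than in control spheroids: KAT2B, a histone acetyltransferase, fell by 0.76 (limma adjusted p = 0.0424, lost without any array but the first treated spheroid one, up to 0.153). Its relative KAT2A was lower in spheroids than in monolayers. The difference was −1.50 in the presence of cytokines (limma adjusted p = 0.00882, at most 0.0499 without any 1 array) and −1.52 in their absence (adjusted p = 0.0199, up to 0.0538 without either treated monolayer, either treated spheroid or the first control spheroid array). MAML1, the coactivator that binds the Notch intracellular domain on RBPJ, was lower in treated spheroids than in treated monolayers, with a difference of −0.52 (adjusted p = 0.0374), a call lost without any 1 array (up to 0.146).

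Of 12 measured corepressors 2 were higher and 2 lower in treated than in control spheroids. TLE3, a Groucho corepressor that HES proteins recruit, rose by 0.96 and the deacetylase gene HDAC1 fell by 1.15 (limma adjusted p = 0.0258 and 0.0213). Both calls were lost without either control spheroid or the second treated spheroid array, and also without either control monolayer array for TLE3 and either treated monolayer array for HDAC1 (up to 0.112 and 0.0955). The other called pair, outside the limit of 4 per list, was TLE1 with 0.80 and RITA1, whose product binds RBPJ, with −1.11 (limma adjusted p = 0.00556 and 0.0241). TLE1 kept its call without each array in turn but not on the 4 spheroid arrays alone (adjusted p = 0.0647), and RITA1 lost it without any array other than the treated monolayer ones (up to 0.0933). SPEN, a corepressor that binds RBPJ, was lower in control spheroids than in control monolayers, with a difference of −1.12 (adjusted p = 0.0255, lost without any array but the first control monolayer one, up to 0.102). TLE4 was lower in treated spheroids than in treated monolayers, with a difference of −1.30 (adjusted p = 0.0204, lost without any array other than the treated spheroid ones, up to 0.099).

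HES4, a further HES repressor, was the 1 gene called of the 7 other measured HES and HEY genes. It read 8.99 and 8.89 in treated spheroids, 6.77 and 6.20 in control spheroids, 6.34 and 5.93 in treated monolayers, and 5.73 and 5.49 in control monolayers. Its group means fell in the same order as those of HEY1, with treated spheroids apart from the rest and overlap between control spheroids and treated monolayers. The log2 fold-change in spheroids was 2.45 (standard error 0.26, limma adjusted p = 0.0122), and no single array left out ended the call (up to 0.0403), which was lost on the 4 spheroid arrays alone (adjusted p = 0.103). Between treated spheroids and treated monolayers it was 2.81 (limma adjusted p = 0.00649, and 0.072 on the 4 treated arrays alone).

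**Figure D4:**
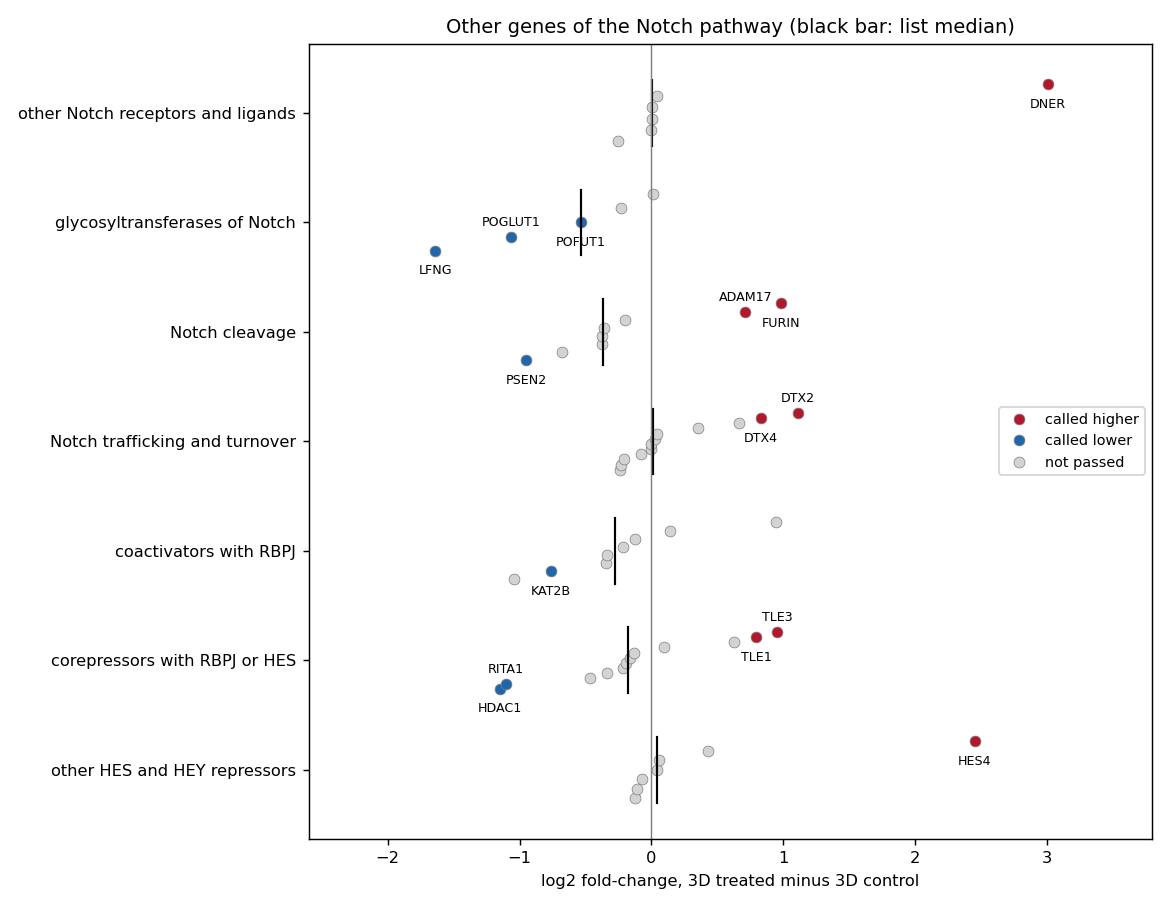
Log2 fold-changes between treated and control spheroids (x axis) of the 58 other genes of the Notch pathway in 7 lists (rows), 1 point per gene on its main probe set, with black bars for list medians. Of all points 8 are called higher and 7 lower, HES4 at 2.45 and DNER at 3.01 lie farthest to the right, and the 3 called glycosyltransferases lie to the left.

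Across the whole pathway, more calls were made between culture forms with cytokines than without. Between treated spheroids and treated monolayers 6 of the 58 were higher and 11 lower, and between control spheroids and control monolayers 0 were higher and 4 lower. Over all genes the shares differed in the same way, with 9.06% and 14.5% against 5.77% and 4.90%.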

How the data were processed

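RNA was profiled on Affymetrix U133 plus 2.0 arrays, 2 per group. The deposited values are log2 expression values that the authors made with GCRMA, which subtracts background using probe sequence and normalizes and summarizes the probes of a set. The submitters' processing notes also name limma 3.6.9. No further normalization was applied here. Of 54675 probe sets, 62 controls were left out. The platform annotation names 1 gene for 41091, and several for 1801, 11721 stay unnamed here, and 1 further probe set of a member was left out since it names several genes.

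Group means of all 8 arrays were fitted with limma 3.58.1 (lmFit and eBayes, R 4.3.3), with Benjamini-Hochberg adjustment over 54613 probe sets and a 0.05 threshold. Residual degrees of freedom were 4 (prior 0.347), and the code was tested on simulated data. All 10 genes are named, up to 4 called genes per pathway list (TLE1 and RITA1 were added after their values were seen), and the 3 genes closest in pattern to each of HEY1, HES1 and JAG1. Genes, lists and tests were chosen with earlier results of these data known. Some genes of the pathway lists were not analysed here. Lower bounds of fold were taken against the array medians. Alternatives were ordinary t statistics, an intensity trend, array medians subtracted, quantile normalization, dropping probe sets that exceed the array's median on fewer than 2 arrays, the probe set with the largest change, adjustment over a single probe set per gene, fits of the compared arrays alone, replicate number as a block, and leaving out each array. Plots used matplotlib 3.10.9 in Python 3.11.15.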

Additional observations from a re-analysis of the deposited data

Results flagged for a closer look

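HES1 differed between culture forms in its response to TNF and TGFβ. The difference between the spheroid and the monolayer log2 fold-change was 2.42 (limma adjusted p = 0.0233), with 1.74 in spheroids and −0.69 in monolayers. The result is listed here because the test of the difference itself passed the threshold. It did not pass without either treated monolayer array (adjusted p up to 0.0591) or with the replicate block (0.0731). The 2 arrays per group are too few to test whether 1 array stands apart from its group.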

How the results depend on the processing

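Of 35 differences (7 genes in 5 comparisons), 13 were called, and none of the 13 changed direction under any of the 17 alternatives. The count of 5 members called between treated and control spheroids became 0 when only the arrays compared were fitted, 2 with the replicate block, and 1 to 3 with 1 array left out. The count of 0 in monolayers stayed at 0 under every alternative. The 1 call of the difference between the responses became 2 with array medians subtracted, 3 with the filter on dim probe sets, 0 with the replicate block, and 0 to 3 with 1 array left out. The 3 calls between control spheroids and control monolayers became 5 with the filter and 5 with the probe set of the largest change (2 higher and 3 lower in both), 1 with only the arrays compared, 0 with the replicate block, and 0 to 1 with 1 array left out. The 4 calls between treated spheroids and treated monolayers became 1 with only the arrays compared and 3 to 5 with 1 array left out. Fits of fewer arrays have fewer residual degrees of freedom and the filter tests fewer probe sets (28188). For the other settings the cause was not tested. A fit without 1 array leaves a lone array in its group, which is assumed to vary like the others. Of the pathway genes, POFUT1 alone kept its calls when only the arrays compared were fitted. The difference between responses needs all 8 arrays and was not run on fewer groups.

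The labels do not say that replicate numbers pair arrays, and deviations of same-numbered arrays from their group means correlated at 0.283 between treated and control monolayers and at −0.015 to 0.09 between the other groups, over 28188 probe sets. With the replicate block, HES1 (adjusted p = 0.0317) and HEY1 (0.0341) passed in spheroids, and the HES1 difference between the responses had an adjusted p of 0.0731.

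Among the 35 differences, signs changed for ones near 0 that had not been called. With the probe set of the largest change, JAG2 had −0.11 in spheroids, and NOTCH2 had 0.24 between control spheroids and control monolayers. Under the same setting the called pathway gene TLE1 turned, to −0.94 (adjusted p = 0.0566) between treated spheroids and treated monolayers, against 0.41 on its main probe set. With quantile normalization, the JAG2 difference between the responses was 0.0998. With 1 array left out, JAG2 ran from −0.035 to 0.20 in spheroids, from −0.22 to 0.43 in monolayers and from −0.34 to 0.31 for the difference between both. In monolayers, JAG1 ran from −0.10 to 0.18, NOTCH2 from −0.18 to 0.12 and RBPJ from −0.23 to 0.072. The NOTCH3 difference between the responses ran from −0.34 to 0.018, and NOTCH2 between control spheroids and control monolayers from −0.39 to 0.10.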

Other observations

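Genes that ran most like HEY1, HES1 and JAG1 over the 8 arrays were ranked by the root mean square difference on the log2 scale after each probe set's own mean was subtracted. This is a description of 8 arrays with no test. For HEY1 the 3 closest were PTAFR, the receptor of platelet-activating factor (0.31), TNFAIP6, a hyaluronan-binding protein induced by TNF (0.41), and LOX, which cross-links collagen (0.43). Group means of TNFAIP6 were 9.68 in treated spheroids, 6.75 in control spheroids, 6.25 in treated monolayers and 5.36 in control monolayers. LOX had 10.22, 8.05, 6.35 and 5.58 in the same order of groups.

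For HES1 the closest were ITPRIP (0.19), the imprinted gene PHLDA2 (0.25) and RTN4R, the Nogo receptor (0.26). PHLDA2 had group means of 12.33 in treated spheroids, 10.78 in control spheroids, 11.07 in treated monolayers and 11.41 in control monolayers. For JAG1 they were the semaphorin gene SEMA3C (0.19), MAP1B, which encodes a microtubule-associated protein (0.21), and WWC3 (0.21). SEMA3C had 11.18 in treated spheroids, 9.45 in control spheroids, 11.53 in treated monolayers and 11.08 in control monolayers, so that control spheroids were the low group, as for JAG1.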
